A study of Mus musculus with 8 samples.

Results

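The genes described here encode the structural subunits of mitochondrial complex I. They are the rows of the expression table whose symbol begins with Ndufa, Ndufb, Ndufc, Ndufs or Ndufv followed directly by a number, which leaves out the assembly factors named Ndufaf. The rule found 38 genes of the 24972 in the table. Of these, 37 had a mean of at least 10 normalized counts over the 8 libraries and were tested, among 13267 genes tested in all.

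Complex I, NADH:ubiquinone oxidoreductase, is the entry point of the respiratory chain. It passes electrons from NADH through a flavin and a chain of iron-sulfur clusters to ubiquinone, and pumps protons across the inner mitochondrial membrane. Its matrix arm carries the redox centres and its membrane arm the proton channels. Core subunits are made from both nuclear and mitochondrial genes, and accessory subunits surround them. Tfam packages mitochondrial DNA and takes part in its transcription, so it serves the mitochondrial partners of the nuclear genes described here. Zbp1 is a sensor of Z-form nucleic acids that acts in innate immunity and cell death.

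RNA sequencing was done on untreated primary mouse embryonic fibroblasts, cultures grown from embryos of embryonic day 14 and passaged 2 times. There were 4 genotypes with 2 libraries each: wild type (WT), heterozygous for Tfam (Tfam+/-), homozygous for loss of Zbp1 (Zbp1-/-), and carrying both changes (Tfam+/-Zbp1-/-). The labels name no promoter, Cre or strain for these alleles, and do not say whether replicates were separate embryos. P-values therefore measure the spread between these libraries, which may be technical. In RNA from a whole culture, fewer cells of a type and less RNA per cell cannot be told apart.

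Library totals ran from 16752835 to 18303036 normalized counts. All 10 fibroblast markers were tested, with a summed level of 500519 to 737087 across the libraries, against 2176 to 5344 for 8 leukocyte markers. The leukocyte sum was 4203 to 5344 in the 4 libraries with intact Zbp1 and 2176 to 2658 in the 4 without; its part in the results on complex I was not tested. Tfam had normalized counts of 629 and 610 for WT, 278 and 365 for Tfam+/-, 675 and 471 for Zbp1-/- and 424 and 375 for Tfam+/-Zbp1-/-. All 4 libraries with 1 Tfam allele lay below all 4 with 2, though the fall over both Zbp1 backgrounds did not pass (log2 change -0.73, SE 0.15, limma adjusted p = 0.14). In Tfam+/- against WT the change of Tfam was -0.96 (SE 0.21, limma adjusted p = 0.16). With a term shared by 2 libraries, described below, it was -0.73 (SE 0.082, limma adjusted p = 3.3e-06). Zbp1 had values of 7.34 and 3.19 for WT, 64.6 and 69.8 for Tfam+/-, 3.79 and 1.03 for Zbp1-/- and 0.86 and 2.69 for Tfam+/-Zbp1-/-. The WT level was so low that Zbp1 checks the knockout label mainly on the Tfam+/- background. Tfam+/- replicate 1 and Zbp1-/- replicate 2 stood apart from their partners across much of the table, so each result below is given with these 2 libraries in view.

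The coding sequences show how the members differ in base composition, which went with how they behaved in those 2 libraries. The 2 members with the deepest fall there (Ndufv2 and Ndufc2) and the 2 with the highest rise (Ndufs7 and Ndufa13) are shown, chosen after their values were seen and leaving out Ndufs5 and Ndufb4c, whose reads have near-identical copies. Each line is the last 120 coding bases before the stop codon, 5′ to 3′ on the coding strand, from GENCODE M21 on GRCm38, with G and C in capitals.
Ndufv2: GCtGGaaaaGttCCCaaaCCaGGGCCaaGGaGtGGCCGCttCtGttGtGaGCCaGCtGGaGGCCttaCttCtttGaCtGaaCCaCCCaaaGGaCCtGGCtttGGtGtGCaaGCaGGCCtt
Ndufc2: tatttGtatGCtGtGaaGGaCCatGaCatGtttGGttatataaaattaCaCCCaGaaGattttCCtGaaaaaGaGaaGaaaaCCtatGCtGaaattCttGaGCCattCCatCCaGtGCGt
Ndufs7: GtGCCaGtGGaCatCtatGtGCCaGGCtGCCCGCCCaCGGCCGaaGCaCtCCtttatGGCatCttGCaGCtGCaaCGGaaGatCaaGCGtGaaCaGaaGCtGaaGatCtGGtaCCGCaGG
Ndufa13: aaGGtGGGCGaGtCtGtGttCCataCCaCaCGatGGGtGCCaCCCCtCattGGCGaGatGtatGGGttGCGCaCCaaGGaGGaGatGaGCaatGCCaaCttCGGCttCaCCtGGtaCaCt

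Short stretches did not separate these genes well. The printed stretch held 55.8% G and C in Ndufv2, 36.7% in Ndufc2, 57.5% in Ndufs7 and 55.8% in Ndufa13, so Ndufv2 equalled Ndufa13. The first 120 coding bases, looked at before the printed ones, held 56.7% in Ndufv2, 64.2% in Ndufc2 and 66.7% in both Ndufs7 and Ndufa13. Over the whole transcript the order of these genes was clear: 42.0% in Ndufv2 and 48.8% in Ndufc2, against 60.7% in Ndufs7 and 60.4% in Ndufa13. Not every member kept to it. Ndufb8 held 46.9%, below Ndufc2, but had 1535 normalized counts in Tfam+/- replicate 1 against 1126 in replicate 2. In Zbp1-/- it had 1442 in replicate 2 against 1093 in replicate 1. The transcripts lie at chr17:66078638-66101559 on the minus strand (Ndufv2), chr7:97400003-97407802 on the plus strand (Ndufc2), chr10:80249452-80256792 on the plus strand (Ndufs7) and chr8:69894180-69902558 on the minus strand (Ndufa13).

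A second set of sequences bears on what a member's value can mean. Ndufs5, an accessory subunit at the base of the membrane arm, has a processed pseudogene, BC002163, that has its own row in the table. The stretch holding every difference between them is shown from coding base 51 to 135 of Ndufs5, with the differing bases in capitals.
Ndufs5: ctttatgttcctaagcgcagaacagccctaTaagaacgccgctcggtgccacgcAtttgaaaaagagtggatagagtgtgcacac
BC002163: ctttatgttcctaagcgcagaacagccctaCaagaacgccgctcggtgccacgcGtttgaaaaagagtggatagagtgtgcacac

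Over the 318 coding bases they differed at 2 positions, T81C and A105G, counted from 1 at the start codon with the Ndufs5 base written before the position. Ndufs5 lies at chr4:123712710-123718202 on the minus strand and BC002163 at chr16:42955631-42955949 on the plus strand. Ndufb4 and Ndufb4c, the latter a processed pseudogene whose symbol fits the rule, were identical over all 387 coding bases. In all, 8 of 38 members had a transcript of another gene with at least 95% identity over at least 80% of their coding or transcript length. The sources used here do not say how the authors assigned reads shared by such copies.

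Levels per kilobase of transcript differed over a wide range among the members. Over the 8 libraries, the highest means were 3783 normalized counts per kilobase for Ndufa4 and 2092 for Ndufa7. Ndufa4 carries the family name and is known as a subunit of cytochrome c oxidase, while Ndufa7 is a matrix arm accessory subunit. Among the 37 members tested, the lowest were Ndufs5 at 68.7, Ndufa10 at 497 and Ndufv3 at 522, all accessory subunits. Ndufa7 had normalized counts of 971 and 986 for WT, 1227 and 1033 for Tfam+/-, 1110 and 1335 for Zbp1-/- and 1035 and 1140 for Tfam+/-Zbp1-/-, so every mutant library was above WT. Ndufa10 stood at 923 and 946, 1052 and 958, 981 and 1131, and 1076 and 965 in the same order, again with every mutant library above WT. The share of all genes tested with every mutant library above WT was not counted. In each library without Zbp1, the median of all genes tested was 0.11 to 0.13 above the WT mean on the log2 scale. Ndufa7 was highest in Zbp1-/- replicate 2 and Tfam+/- replicate 1, and Ndufa10 in Zbp1-/- replicate 2 and Tfam+/-Zbp1-/- replicate 1. The median level per kilobase was 825 for the 7 core subunits, 827 for 9 matrix arm accessory subunits, 1179 for 9 proximal membrane arm subunits and 1130 for 10 distal membrane arm subunits. Ndufa4l2, a relative of Ndufa4, was the only member too low to test, at 0.946 to 9.94 normalized counts in the 8 libraries.

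Most members were highest in Tfam+/- replicate 1 and Zbp1-/- replicate 2, whatever their role. These were the 2 highest of the 8 libraries for 25 of 37 members, a pattern seen in 21.5% of all genes tested. They were the 2 lowest for 3 of 37 members, against 27.5% of all genes tested. Summed, the members made up 0.233% and 0.230% of the normalized counts in these 2 libraries, and 0.185% to 0.202% in the other 6. This sum is over the naming rule, so it includes Ndufa4, Ndufa4l2 and Ndufb4c.

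**Figure D1:**
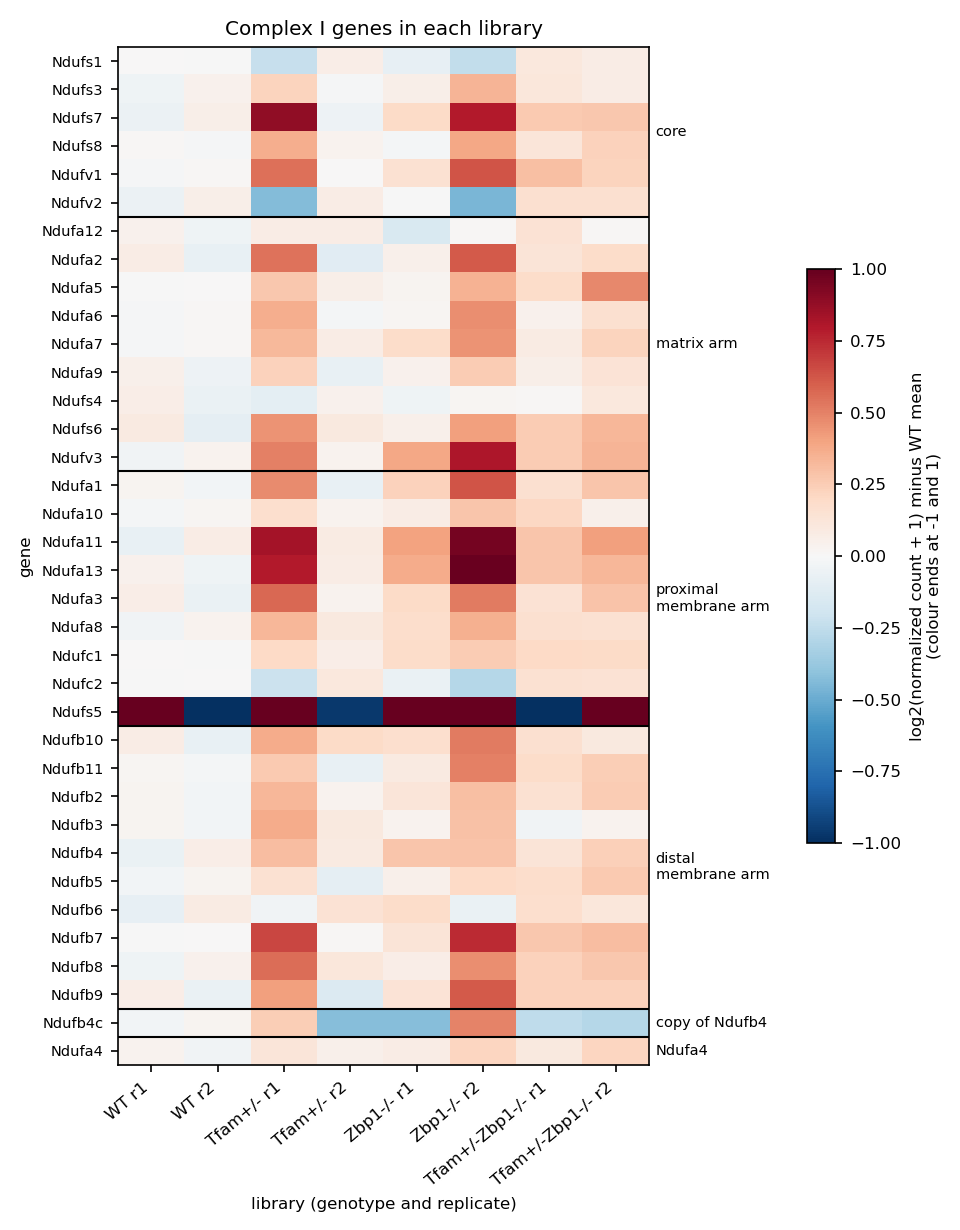
Colour gives log2(normalized count + 1) of tested complex I genes (down) in each library (across) minus the mean of the 2 WT libraries, grouped by role, with colours ending at -1 and 1. Most genes are red in Tfam+/- r1 and Zbp1-/- r2, Ndufv2, Ndufs1 and Ndufc2 are blue there, and Ndufs5 swings between libraries of every genotype.

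Core subunits showed both behaviours. Ndufs7, which carries the last iron-sulfur cluster before ubiquinone, had normalized counts of 395 and 428 for WT, 760 and 396 for Tfam+/-, 470 and 715 for Zbp1-/- and 493 and 497 for Tfam+/-Zbp1-/-. Ndufv1, which binds NADH and the flavin, had values of 1011 and 1028 for WT, 1496 and 1021 for Tfam+/-, 1134 and 1577 for Zbp1-/- and 1256 and 1187 for Tfam+/-Zbp1-/-. In both genes 1 library of each single mutant was far above its partner, and Tfam+/- overlapped WT in its second library. Ndufs8, an iron-sulfur protein, had values of 833 and 823 for WT, 1063 and 847 for Tfam+/-, 819 and 1080 for Zbp1-/- and 899 and 970 for Tfam+/-Zbp1-/-. Ndufs3, a matrix arm core subunit without a redox centre, stood at 786 and 837, 946 and 806, 846 and 1028, and 878 and 854 in the same order. Both genes shared the pattern at smaller size.

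Ndufv2 and Ndufs1, also core subunits, went the other way in the same libraries. Ndufv2, the partner of Ndufv1 in the NADH-oxidizing module, had normalized counts of 1358 and 1477 for WT, 1047 and 1489 for Tfam+/-, 1413 and 1029 for Zbp1-/- and 1579 and 1585 for Tfam+/-Zbp1-/-. Ndufs1, the largest iron-sulfur subunit, had values of 2255 and 2241 for WT, 1916 and 2350 for Tfam+/-, 2119 and 1894 for Zbp1-/- and 2417 and 2363 for Tfam+/-Zbp1-/-. For both, the Tfam+/-Zbp1-/- libraries were the highest pair and lay above both WT libraries. Genes whose proteins sit side by side in the enzyme, such as Ndufv1 and Ndufv2, thus moved in opposite directions between replicates of 1 genotype.

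Replicate differences put a size on this. Tfam+/- replicate 1 was above replicate 2 for 32 of 37 members, with a median log2 difference of 0.31 (-0.01 over all genes tested). Zbp1-/- replicate 2 was above replicate 1 for 32 of 37 members, with a median of 0.32 (0.00 over all genes tested). In WT and in Tfam+/-Zbp1-/- the medians between replicates were 0.00 and 0.05. Differences beyond 0.25 on the log2 scale, in either direction, occurred in 24 of 37 members in Tfam+/- (64.1% of all genes tested) and in 25 in Zbp1-/- (61%). They occurred in 1 member in WT (13.2% of all genes tested) and 2 in Tfam+/-Zbp1-/- (12.7%). In the first 2 genotypes the members' share was thus near that of the whole table, and the members stood apart from it in direction. This direction was not particular to complex I. Summed nuclear subunits of complexes III, IV and V were also highest in Tfam+/- replicate 1 and Zbp1-/- replicate 2. For complex IV the sums were 23428 and 23610 there, and 17930 to 20529 in the other libraries. Those of complex II were highest in the Tfam+/-Zbp1-/- libraries, at 9348 and 9421, narrowly above 9329 in Zbp1-/- replicate 2. The mean log2 level of complex II was highest in Zbp1-/- replicate 2 (11.125) and Tfam+/- replicate 1 (11.0889). The latter was barely above Tfam+/-Zbp1-/- replicate 2 (11.0883).

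The replicate differences followed transcript base composition, in the members and in the whole table. Across 13147 tested genes with a transcript, the correlation with GC content was r = 0.71 (rho 0.80) in Tfam+/- and r = 0.69 (rho 0.76) in Zbp1-/-, against -0.04 in WT and 0.00 in Tfam+/-Zbp1-/-. Across the 37 members it was r = 0.47 (rho 0.56) and r = 0.51 (rho 0.60). These correlations are across genes of the same libraries, and genes are not independent replicates. Members had a median GC of 52.2% (42.0% to 60.7%) and a median length of 763 bases, against 50.1% and 3118 bases over all genes tested. In the bin of 50% to 55% GC, 15 members had a median difference of 0.30 in Tfam+/-, against 0.17 for all genes of that bin and 0.24 for those no longer than the longest member. In the bin of 45% to 50%, 7 members had a median of 0.24 against -0.20 for all genes and -0.11 for those no longer than the longest member. In Zbp1-/- the members' medians were 0.28 in the first bin, against 0.16 for all genes and 0.25 for those limited in length. They were 0.15 in the second, against -0.17 and -0.07. Members therefore lay above genes of like GC in these bins, by little in the first bin of Zbp1-/- among genes limited in length. The limit was 2661 bases, so these genes were not matched to the members in length. What made the 2 libraries differ from their partners was not tested.

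**Figure D2:**
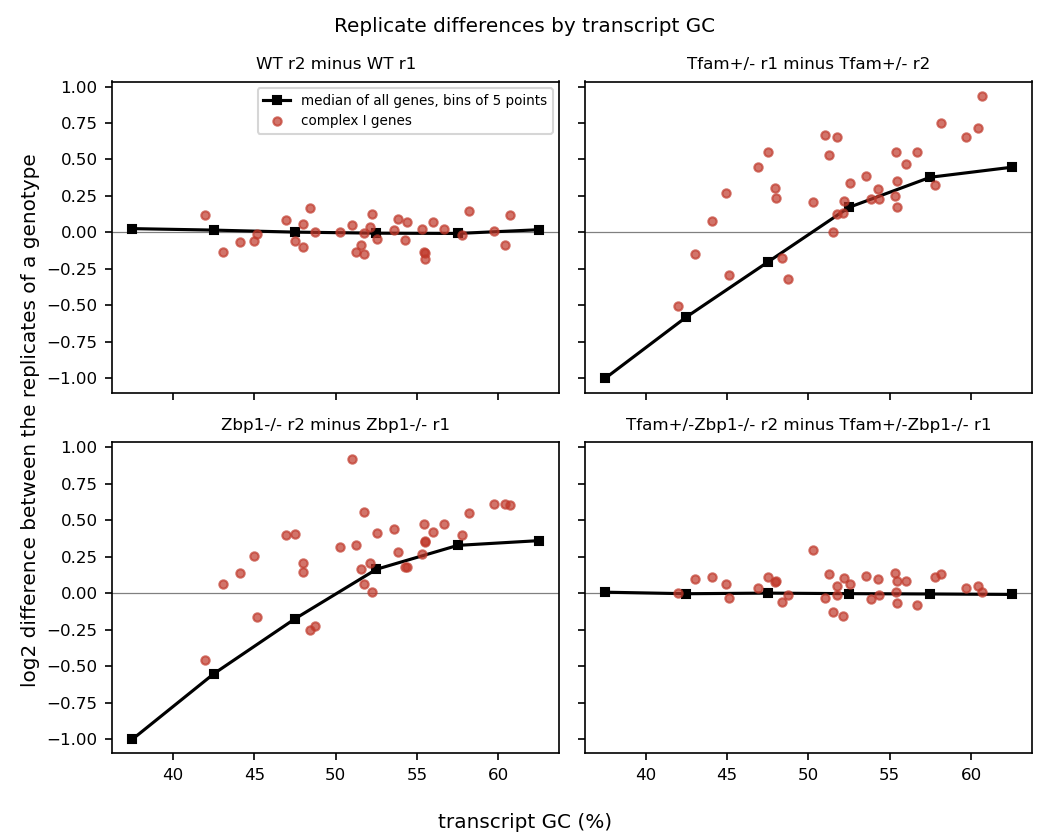
Each point is a complex I gene (Ndufs5 left out), with its transcript GC in percent across and the log2 difference between the replicates of a genotype up, and squares join the medians of all genes tested in bins of 5 percentage points. Differences rise with GC in Tfam+/- (r = 0.47 over 37 members) and Zbp1-/- (r = 0.51), and lie around 0 in WT and Tfam+/-Zbp1-/-.

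Genotypes were compared with limma on log2(normalized count + 1), with Benjamini-Hochberg adjustment over all 13267 genes and a threshold of 0.05. None of the 37 members was called in Tfam+/- against WT, where 0.731% of all genes tested were called. By limma the count was likewise 0 in Zbp1-/- against WT (background 1.06%), Tfam+/-Zbp1-/- against WT (1.38%), Tfam+/-Zbp1-/- against Tfam+/- (5.64%) and Tfam+/-Zbp1-/- against Zbp1-/- (0.415%). It was also 0 for the Tfam genotype over both Zbp1 backgrounds (0.626%), the Zbp1 genotype over both Tfam backgrounds (6.96%) and the interaction of the 2 genotypes (0.663%). At an unadjusted p under 0.05, limma gave 3 of 37 members in Zbp1-/- against WT, where 19.7% of all genes tested passed, and 1 in the interaction (16%). It gave 0 in Tfam+/- against WT (8.74%), Tfam+/-Zbp1-/- against WT (12.6%), Tfam+/-Zbp1-/- against Tfam+/- (20.8%), Tfam+/-Zbp1-/- against Zbp1-/- (12.3%), the Tfam genotype (7.85%) and the Zbp1 genotype (23.5%).

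The loss of 1 Tfam allele on a WT background left most members slightly above WT without a call. The median log2 change was 0.19 over the members and -0.01 over all genes tested, and 32 of 37 members were above 0. Without Tfam+/- replicate 1 the medians were 0.04 and -0.01, with 25 members above 0. Ndufa11, a membrane arm subunit, had the largest rise: it stood at 484 and 537 normalized counts in WT and 911 and 541 in Tfam+/-, so that the libraries did not overlap only by a narrow margin, and its change of 0.46 (SE 0.28) had an adjusted p of 0.56. Leaving out Tfam+/- replicate 1 brought it to 0.085, and the lowest value, that of Ndufv2 (-0.18, SE 0.21, adjusted p = 0.65), to 0.072. Over both Zbp1 backgrounds the median was 0.05 in the members and 0.00 in all genes tested. Leaving out Tfam+/- replicate 1 took the members' median to -0.04, and leaving out Zbp1-/- replicate 2 took it to 0.10. The largest rise there was that of Ndufs6, a zinc-binding subunit of the matrix arm, at 0.17 (SE 0.12, adjusted p = 0.99). It had normalized counts of 505 and 444 for WT, 646 and 506 for Tfam+/-, 491 and 630 for Zbp1-/- and 565 and 598 for Tfam+/-Zbp1-/-. Each pair with 1 Tfam allele lay above the WT pair, for Tfam+/- only by a narrow margin (506 against 505). The share of all genes tested with both pairs above WT was not counted. The Zbp1-/- libraries spanned both Tfam+/-Zbp1-/- libraries.

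Loss of Zbp1 went with higher values on the WT background. The median log2 change in Zbp1-/- was 0.24 in members and 0.11 in all genes tested, and 0.14 and 0.00 after rescaling with a trimmed mean of M-values. Without Zbp1-/- replicate 2 it was 0.09 in members and 0.11 in all genes tested, so the members were then not above the whole table. The extremes with all libraries were Ndufs5 at 1.55 (SE 1.85, adjusted p = 0.61) and Ndufv2 at -0.23 (SE 0.21, adjusted p = 0.51), neither of them called. Ndufv3, an accessory subunit of the NADH-oxidizing module, had the largest rise over both Tfam backgrounds: it had normalized counts of 647 and 680 for WT, 940 and 678 for Tfam+/-, 867 and 1162 for Zbp1-/- and 793 and 841 for Tfam+/-Zbp1-/-. Both Zbp1-/- libraries and both Tfam+/-Zbp1-/- libraries lay above both WT libraries, and Tfam+/- replicate 1 lay among them. Its change was 0.31 (SE 0.14, adjusted p = 0.24). The median over both Tfam backgrounds was 0.11 in members and 0.12 in all genes tested, and -0.01 in both after that rescaling, when 18 of 37 members in place of 33 were above 0. On the deposited scale the members' median was 0.06 without Zbp1-/- replicate 2 (all genes 0.13) and 0.19 without Tfam+/- replicate 1 (all genes 0.11).

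Cells with both changes could be set against WT without the 2 libraries that stood apart, as neither group holds one. Both Tfam+/-Zbp1-/- libraries lay above both WT libraries for 32 of 37 members, a pattern found in 58.8% of all genes tested, and below them for 1 of 37 (14.1% of all genes tested). The median log2 change was 0.16 in members and 0.12 in all genes tested. Rescaling with a trimmed mean of M-values brought these to 0.04 and 0.00, with 28 members above 0 in place of 35. Ndufa11 again had the largest rise, from 484 and 537 normalized counts to 617 and 678, with a log2 change of 0.34 (SE 0.28, adjusted p = 0.68). That SE comes from the fit over all 8 libraries, whose pooled spread includes the 2 libraries that stood apart. With the term for those 2 libraries described below, the change was 0.34 (SE 0.068, limma adjusted p = 0.00064). Fitted with these 2 genotypes alone, limma called 27 of 37 members, 26 of them higher, where 44.7% of all genes tested were called.

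Set against the single mutants, Tfam+/-Zbp1-/- cells showed a median log2 change of 0.00 from Tfam+/- (all genes 0.14) and -0.10 from Zbp1-/- (all genes 0.02). Rescaling took the former to -0.15 (all genes 0.00), with 5 members above 0 in place of 18. The former was 0.14 (all genes 0.13) when Tfam+/- replicate 1 was left out, and the latter 0.08 (all genes 0.01) when Zbp1-/- replicate 2 was. Ndufv2 had the largest rise in both, 0.34 (SE 0.21, adjusted p = 0.38) and 0.39 (SE 0.21, adjusted p = 0.50). In both the single mutant library that stood apart was the low one. The interaction had a median of -0.28 in members and 0.00 in all genes tested, and 7 of 37 members were above 0. Leaving out Tfam+/- replicate 1 took the members' median to -0.085, leaving out Zbp1-/- replicate 2 to -0.10, and a term for the 2 libraries to 0.07.

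A fit with 1 added term shared by Tfam+/- replicate 1 and Zbp1-/- replicate 2 took their common departure out. The term itself was called in 32 of 37 members, 28 higher and 4 lower, with a median of 0.27, against 65.3% of all genes tested with a median of 0.00. Among the members called, its largest values were 0.80 for Ndufb4c, 0.77 for Ndufs7 and 0.67 for Ndufa13, and its lowest -0.48 for Ndufv2. The term was chosen because these libraries were known to stand apart. Its own calls therefore describe that departure and do not test it. The calls that follow depend on the same choice.

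With the term, many more genes were called over the whole table, so each count of members stands beside the share of all genes tested. For the Tfam genotype over both Zbp1 backgrounds 6 members were called, all higher, where 25.6% of all genes tested were called. They were Ndufs6 (0.17, SE 0.05, adjusted p = 0.016), Ndufb8 (0.16), Ndufa5 (0.15), Ndufc2 (0.13), Ndufv2 (0.10) and Ndufs1 (0.09). In the 6 libraries without the 2 that stood apart 5 were called (21.6% of all genes tested). Ndufs6 (limma adjusted p = 0.056) and Ndufa5 (0.071) were then not called, and Ndufa12, a matrix arm accessory subunit, was (0.15, limma adjusted p = 0.031). For the Zbp1 genotype 24 members were called, all higher, at a background of 57.5%, with Ndufv3 highest (0.31, SE 0.04, adjusted p = 1.4e-06). After rescaling with that trimmed mean as well, 9 were called, 4 higher and 5 lower, at a background of 44.1%, so the common direction depended on the scaling. Ndufv3 was then 0.19 (limma adjusted p = 0.00052). The same rescaling took the calls for the Tfam genotype from 6 to 9, all higher, at a background of 25.9%.

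In the pairwise comparisons with the term, 1 member was called in Tfam+/- against WT (background 15.6%), 10 in Zbp1-/- against WT (35.6%) and 26 in Tfam+/-Zbp1-/- against WT (42.5%). Another 17 were called in Tfam+/-Zbp1-/- against Tfam+/- (45.6%), 10 in Tfam+/-Zbp1-/- against Zbp1-/- (23.8%) and 1 in the interaction (16.9%). With rescaling added, the 26 became 7 (26.3% of all genes tested) and the 17 became 3 (33.5%). The single call in Tfam+/- against WT and in the interaction was Ndufb4c, whose coding sequence is that of Ndufb4. These comparisons share libraries, so their counts are not independent of each other.

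**Figure D3:**
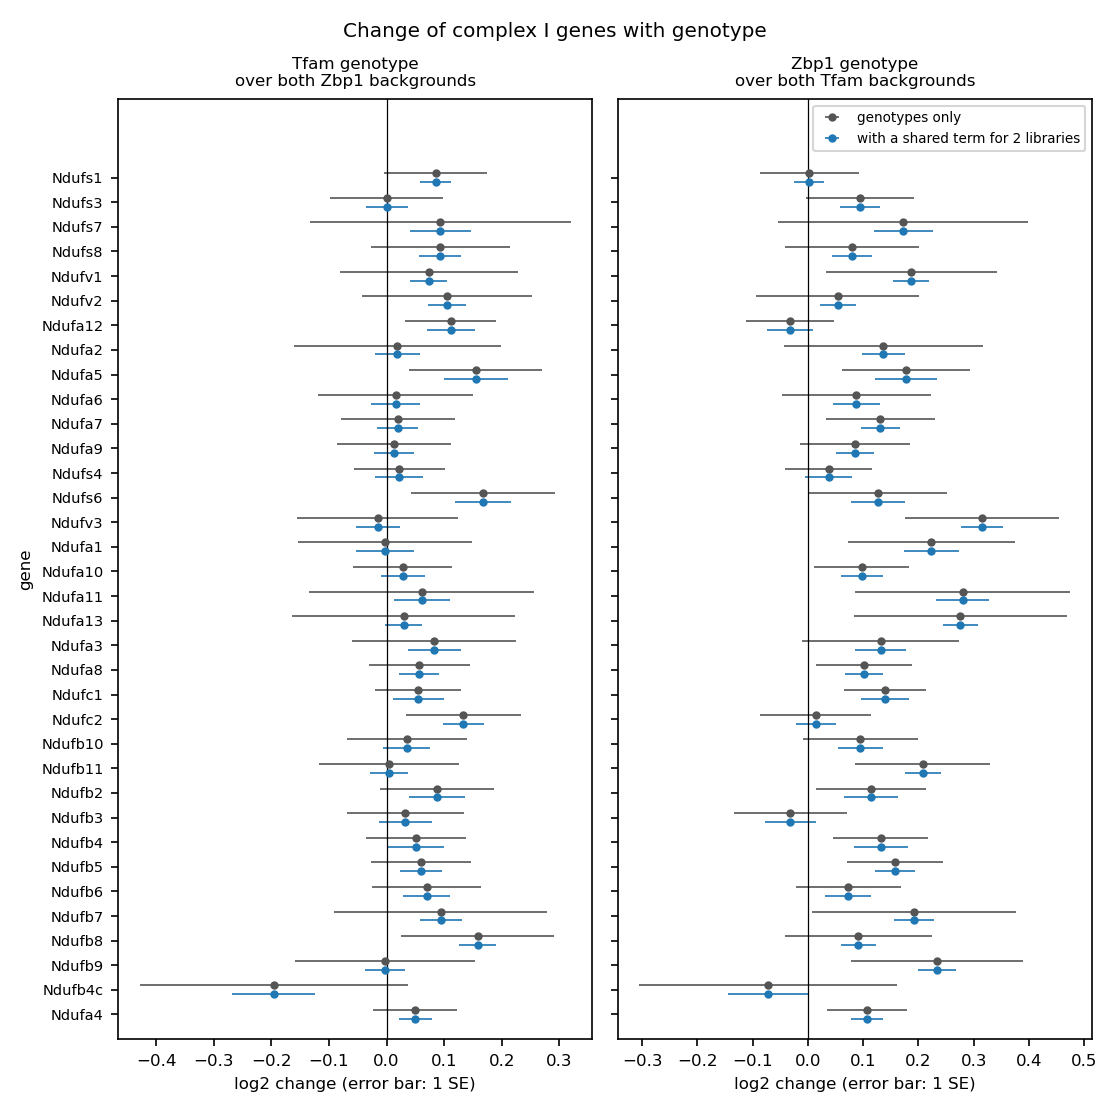
Log2 change of complex I genes (Ndufs5 left out) with the Tfam genotype (left) and the Zbp1 genotype (right), in a fit on genotypes only (grey) and with a term shared by 2 libraries (blue), with bars of 1 SE. The values are the same in both fits and the error bars are shorter with the term. Right-hand values lie mostly above 0 on the deposited scale (33 of 37 members), and 18 of 37 do after rescaling.

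The 2 pairs of copies carried their values differently. Ndufs5 had normalized counts of 39.2 and 8.39 for WT, 61.6 and 8.95 for Tfam+/-, 72.8 and 42.6 for Zbp1-/- and 0 and 55 for Tfam+/-Zbp1-/-. On the log2 scale, replicate 2 minus replicate 1 was -2.10 in WT, -0.76 in Zbp1-/- and 5.81 in Tfam+/-Zbp1-/-, and replicate 1 minus replicate 2 was 2.65 in Tfam+/-. The gene had the largest fall in 6 of 8 comparisons with SEs of 1.31 to 2.62 on the log2 scale. With 1 library at 0, those fitted changes depend on the pseudocount and none was called. BC002163 stood at 597 to 846, so Ndufs5 held 0% to 10.5% of the sum of the pair. That sum was 634 to 888.7 and was highest in the 2 libraries that stood apart. Read assignment between the copies was not tested.

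Ndufb4c had normalized counts of 214 and 222 for WT, 259 and 162 for Tfam+/-, 162 and 307 for Zbp1-/- and 183 and 179 for Tfam+/-Zbp1-/-. Ndufb4, a distal membrane arm subunit, held 67.6% to 79.7% of the sum of this pair. Values of either gene alone are therefore uncertain, and the sum was 716 to 948. Ndufa4 had values of 2203 and 2108 for WT, 2349 and 2226 for Tfam+/-, 2266 and 2500 for Zbp1-/- and 2310 and 2498 for Tfam+/-Zbp1-/-, so all mutant libraries lay above both WT libraries. The share of all genes with that order was not counted, but 58.8% had both Tfam+/-Zbp1-/- libraries above both WT libraries.

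**Figure D4:**
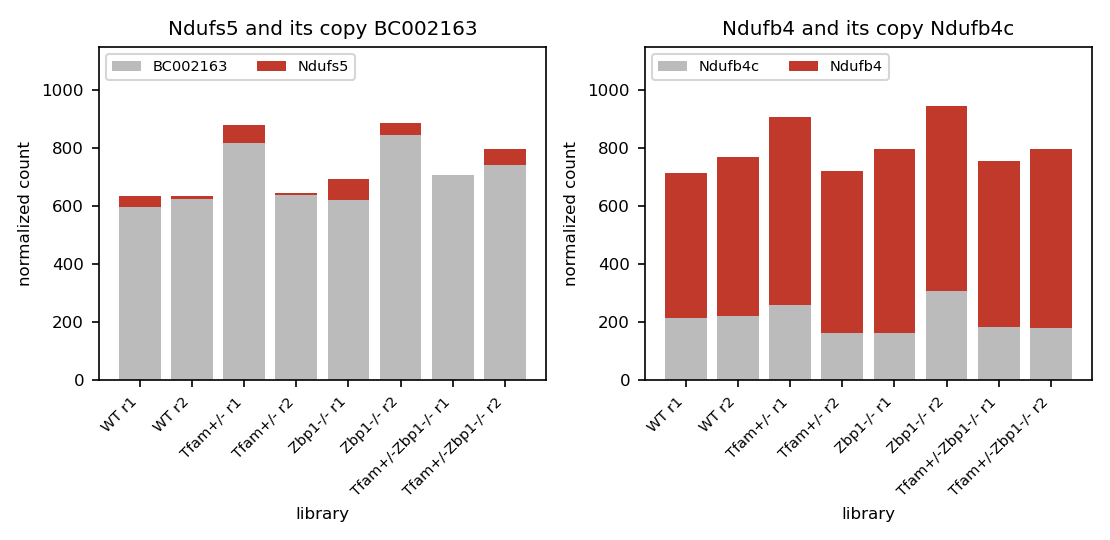
Bars stack the normalized counts of a complex I gene (red) on those of its near-identical copy (grey) in each of the 8 libraries. Ndufs5 is 0% to 10.5% of its pair, and Ndufb4 is 67.6% to 79.7% of its pair.

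Other genes of the pathway gave a mixed picture in the 2 libraries that stood apart. Ndufab1, a complex I subunit and mitochondrial acyl carrier protein that the naming rule leaves out, had normalized counts of 876 and 892 for WT, 769 and 953 for Tfam+/-, 863 and 663 for Zbp1-/- and 939 and 943 for Tfam+/-Zbp1-/-. It was low in the libraries where most members were high. The summed level of the assembly factors was also lowest there, at 6214 in Tfam+/- replicate 1 and 6122 in Zbp1-/- replicate 2. It was 6572 to 7094 in the other libraries. Their mean log2 level was 8.06 and 8.10 in those 2 libraries, within the 8.03 to 8.19 of the others. Of 19 tested assembly factors, limma called 0 for the Tfam genotype and 0 for the Zbp1 genotype, with 1 and 2 at an unadjusted p under 0.05, which 7.85% and 23.5% of all genes tested passed. None of the tested subunits of complex II (4), III (9), IV (10) and V (16) was called for either genotype by limma, with 0 and 1 of them at that unadjusted threshold, beside the same shares of all genes tested. Their median log2 changes with the Zbp1 genotype ran from 0.06 to 0.11, beside 0.11 for the complex I genes. Mitochondrially encoded subunits were not analysed here.

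Promoters were searched for short motifs on both strands in the RefSeq window from 250 bases before to 50 after the start (GRCm38.p6), which 32 of 38 members had. The NRF1 core CGCANGCGC was found in 9 of 32 members (28.1%) and in 7.12% of all 27025 genes with a promoter. The YY1 core AAGATGGC was found in 7 of 32 (21.9%, against 3.19%), in each case with a base after the start, since 0 of 32 held it in the 250 bases before. The ETS core CCGGAAG was found in 4 of 32 (12.5%, against 9.93%), the cAMP response element TGACGTCA in 3 of 32 (9.38%, against 2.03%) and TCAAGGTCA, an ERR site, in 0 of 32 (against 0.466%). The background was not limited to the genes tested here, and the shares among those were not counted. A match is a description of letters and not of binding. The promoter of Ndufa11 is shown because that gene had the largest rise in 2 comparisons and its window held 2 of the motifs, in capitals (chr17:56717512-56717761, plus strand).
Ndufa11: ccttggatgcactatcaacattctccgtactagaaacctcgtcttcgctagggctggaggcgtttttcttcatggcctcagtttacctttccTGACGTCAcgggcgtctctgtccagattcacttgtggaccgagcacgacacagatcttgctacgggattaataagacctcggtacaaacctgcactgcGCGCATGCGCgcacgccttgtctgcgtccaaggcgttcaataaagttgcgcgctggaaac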

How the data were processed

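The authors aligned reads with STAR (2.6.1a, per the submitters' processing notes, which also name Salmon without a role) to mm10 with RefSeq genes, per the series' design text. Normalized counts were deposited by the authors as 1 signal value for each gene and library, without division by length. The sources used here do not state how reads were counted, whether strand was used or how values were scaled, and whole reads could not be recovered, so no count model was run.

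Values were taken as log2(normalized count + 1) and fitted with limma 3.58.1 in R 4.3.3 (empirical Bayes with a mean-variance trend) over all 8 libraries, which share 1 estimate of the spread. The test was checked on simulated counts without any shift shared by libraries, so that check does not cover the 2 libraries that stood apart. Rescaling used an unweighted trimmed mean of M-values between libraries, on the deposited values. It replaced a weighted version after the values of that version had been seen, since its weights assume read counts. Lengths, GC and copies came from GENCODE M21, and coordinates are 1-based.

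The members and lists were chosen with earlier results of these data known. Named with values were Tfam, Zbp1, core subunits, Ndufa4, Ndufa4l2 and Ndufb4c, called members, the largest rise and fall per comparison, and the 3 highest and lowest per kilobase. An item that this rule names is not reported here or plotted, and counts and medians include it. Others are marked as chosen after seeing values or come from the term for 2 libraries. Alternatives are listed in the closing section, and 3 of them were chosen after seeing the data. With 2 libraries against 2, an exact permutation test cannot go below p = 0.333.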

Additional observations from a re-analysis of the deposited data

How the results depend on the processing

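No member was called in any of the 8 comparisons with a pseudocount of 5 or 0.1, without a filter, with a filter at a mean of 50, after rescaling with a trimmed mean of M-values, or with a prior without a trend. With the replicate number as a block the count was also 0 in all 8 comparisons. Same-numbered libraries did not deviate together (correlations of -0.70 to 0.06). The -0.70 was between Tfam+/- and Zbp1-/-, whose libraries that stood apart carry different replicate numbers. A pairing that involves these genotypes could thus be hidden. Between WT and Tfam+/-Zbp1-/-, which hold neither library, the correlation was -0.37, so no pairing by number was seen there. Leaving out each library in turn gave 0 to 0 members in each comparison.

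Counts below come in a fixed order. WT is the reference for Tfam+/-, then for Zbp1-/-, then for Tfam+/-Zbp1-/-, after which the double mutant is set against each single mutant (Tfam+/- then Zbp1-/-), and the Tfam genotype, the Zbp1 genotype and the interaction close the list. With 2 libraries modelled, the shared term gave 1, 10, 26, 17, 10, 6, 24 and 1 members. Of all genes tested, 15.6% to 57.5% were called with this term. The 6 libraries without Tfam+/- replicate 1 and Zbp1-/- replicate 2 gave 1, 9, 27, 14, 8, 5, 20 and 1, where 15.4% to 51.2% of all genes tested were called. The shared term with the trimmed mean of M-values gave 1, 6, 7, 3, 10, 9, 9 and 1. The share of all genes tested that was called in that fit was 15.4% to 44.1%. The shared term with the GC and length trend removed gave 1, 4, 4, 4, 2, 3, 8 and 1, where 14.9% to 43.3% of all genes were called. Removing the GC and length trend alone gave 1 member in Zbp1-/- against WT and 1 for the Zbp1 genotype, Ndufv3 in both, and 0 in the others, where 4.32% to 20.9% of all genes were called. Fitting only the genotypes compared gave 27 in Tfam+/-Zbp1-/- against WT (44.7% of all genes tested) and 0 in the other pairwise comparisons. The last 2 shared-term fits and the GC and length fit were chosen after seeing the data.

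Ndufv2 in Tfam+/- against WT turned from -0.18 to 0.059 with the shared term, 0.072 in the 6 libraries, 0.094 with the GC and length trend removed, and 0.078 and 0.064 with the shared term plus rescaling or plus that trend removed. In Zbp1-/- against WT it turned from -0.23 to 0.0090, 0.057 and 0.027 with the shared term, the GC and length trend removed, and both. It was -0.037 in Tfam+/-Zbp1-/- against Tfam+/- with the shared term and rescaling, and -0.034 in the interaction with the GC and length trend removed. Leaving out 1 library gave it -0.44 to 0.072 in Tfam+/- against WT. Ndufs5 for the Zbp1 genotype turned to 0.25 with a pseudocount of 5 and 0.76 in the 6 libraries, with -1.55 to 1.36 when 1 library was left out. Its range was -4.28 to 1.53 in Tfam+/-Zbp1-/- against WT, -4.64 to 1.17 against Tfam+/- and -2.73 to 0.17 for the Tfam genotype, each turning positive without Tfam+/-Zbp1-/- replicate 1, where it is listed at 0. None of these values passed the threshold, and the cause was not tested.

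With 2 libraries a genotype and 4 residual degrees of freedom, the fit over all 8 libraries called no member on the deposited values without a term for the 2 libraries. The depth in reads is not given, so no counting interval was made. The YY1 share fell from 21.9% to 0% with the window before the start alone, and the NRF1 share was 25%.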
